A study of Mus musculus with 14 samples.

Results

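The genes for the cytosolic ribosomal proteins were described in cells of white nodules. Members were the genes whose symbol is Rpl or Rps followed by digits and at most 1 trailing letter a or x, plus Rplp0, Rplp1, Rplp2 and Rpsa, with at least 100 UMIs (unique transcript molecules) over the 7 RNA matrices. These were 76 of 32285 genes, 46 of the large and 30 of the small ribosomal subunit, and none fell below the minimum. They held 87992326 of 428286663 UMIs, or 20.5%, and the least counted member had 270825 UMIs. Rps3a1 and Fau, which also encode ribosomal proteins, lie outside the symbol rule and are given as a check.

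Each ribosome is built from ribosomal RNA and 1 copy of most of these proteins. Their messenger RNAs are among the most abundant in growing cells, and most begin with a 5′ terminal oligopyrimidine (TOP) tract, a C followed by a run of C and T bases, through which mTOR signalling and the RNA-binding protein Larp1 control their translation. The MYC transcription factor is known to raise transcription of ribosomal protein and ribosome biogenesis genes in dividing lymphocytes.

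White nodules came from 7 cKO mice (Eif3e fl/fl Cγ1-Cre on C57BL/6J), and the sample of a mouse is called its nodule, though the labels do not say how many entered it. In these mice the Cre recombinase is driven from the Ighg1 locus and acts in activated B cells, where it removes the floxed alleles of Eif3e, a subunit gene of translation initiation factor eIF3. B cell receptors (BCRs) were sequenced in 5 mice. Mouse 27 was 12 mo of age and its sample, labelled liver, was a secondary tumor grown in a Rag2-/- recipient. Mouse 29 (12 mo) gave lung, mouse 31 (13 mo) spleen and mouse 33 (16 mo) thymus. Mouse 34 (9 mo), which had received a mixed bone marrow graft, gave lung and thymus in 1 sample. T cell receptors (TCRs) were sequenced in the liver of mouse 30 at 14 mo and in the spleen of mouse 32 at 12 mo. A Rosa26-YFP reporter allele was carried by mice 29, 31, 32 and 34 and not by mice 27, 30 and 33. No nodule-free or Cre-negative tissue was analysed here, site and mouse cannot be told apart, and each mouse is 1 replicate.

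The clone of a nodule was the family of its most frequent receptor, limited to cells with at least 2 UMIs of markers of its own lineage and under 2 of every other class. B clones held 1691, 209, 2934, 850 and 1267 cells in mice 27, 29, 31, 33 and 34, and T clones held 1975 and 3779 cells in mice 30 and 32. Non-clonal cells with a B cell receptor numbered 23 (mouse 29), 38 (mouse 31), 26 (mouse 33) and 22 (mouse 34), whereas mouse 27 had none. Those with a T cell receptor numbered 333 (mouse 30) and 375 (mouse 32). T marker cells of the 5 BCR nodules, gated in the same way on T cell markers, were the second reference and numbered 347, 1315, 636, 2804 and 710. Those of mouse 27 came from an immunodeficient Rag2-/- recipient of total tumor cells, and their origin was not tested. Cd79a, a subunit of the B cell receptor, ranged from 299 to 1149 CPM (UMIs per 1000000 UMIs of the set) in B clones and from 0.455 to 0.791 CPM in T clones. Cd3e, a subunit of the T cell receptor complex, ranged from 445 to 676 CPM in T clones and from 0.144 to 1.26 CPM in B clones. Summed over all 4 B markers, CPM was 808 to 2735 in B clones and 17.2 to 82.9 in T marker cells of the same nodules, and over all 5 T markers it was 1758 to 2423 in T marker cells and 1.23 to 5.09 in B clones. The part of foreign RNA in the results was not tested.

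Libraries held 19264039 to 123456962 UMIs, and 75503 of 77442 deposited cells were kept. Median UMIs per cell differed between the sets, at 9324 to 13600 in B clones, 2120 to 9160 in other BCR-called cells, 1503 to 3714 in T marker cells and 2014 to 3656 in T clones. Between 78 and 278 cell barcodes were shared by any pair of libraries, at most 2.27% of the smaller one. Eif3e ranged from 172 to 257 CPM in B clones and from 113 to 175 CPM in T marker cells of the same nodules, and counts per gene do not separate a deleted from an intact transcript. In the study's own assays, tumor B and CD4+ T cells were YFP-negative and held eIF3e protein at a normal amount. The study therefore proposes that the lymphomas arose from eIF3e-sufficient lymphocytes.

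The start of the transcript is shown first because a TOP tract is known for most genes of the family. RefSeq (GRCm38.p6, the build of the files) gave a promoter for 56 of the 76 members. A TOP tract, taken as C followed by at least 4 bases that are C or T, began exactly at the annotated start in 12 of these 56 members (21.4%) against 2.49% of 27025 promoters of all genes. Within 5 bases of the start it was present in 26 members (46.4%) against 18.5% of all. By the annotated starts used here, most of the 56 members thus did not show a tract, and the reason was not tested. Rps27a, also called higher in B clones, had no promoter among the 56. The members below are 3 that were called higher in B clones (Rps6, Rps18 and Rpl28), 2 with the lowest share ratio in them (Rps27 and Rps21) and 1 that stood out in a single mouse (Rpl36a). Each window holds 15 bases before and 15 from the annotated start on, 5′ to 3′, and capitals mark the pyrimidine run at the start.
Rps6, chr4:86857353-86857382, minus strand: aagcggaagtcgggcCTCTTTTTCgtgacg
Rps18, chr17:33955651-33955680, minus strand: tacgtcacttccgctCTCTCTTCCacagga
Rpl28, chr7:4792950-4792979, plus strand: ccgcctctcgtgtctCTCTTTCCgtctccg
Rps27, chr3:90213634-90213663, minus strand: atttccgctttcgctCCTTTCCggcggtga
Rps21, chr2:180257364-180257393, plus strand: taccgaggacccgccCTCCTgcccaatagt
Rpl36a, chrX:134585639-134585668, plus strand: gtgcacccaggcaccgcctataaacttccg
Among the windows shown, members at both ends of the range carried the tract, and the annotated start of Rpl36a did not begin with one. In the 300 bases from 250 before to 50 after the start, the letters CCGGAAG, the core bound by ETS factors, stood on either strand in 22 of 56 members (39.3%) against 9.12% of all promoters. AAGATGG, the core of YY1 sites, stood in 8 members (14.3%) against 6.48%, and CACGTG, the E-box that MYC can bind, in 5 members (8.93%) against 7.24%. CCGGAAG and AAGATGG can overlap by their AAG, and a match is a description of the sequence.

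The first question was how much of the RNA of a clone was ribosomal protein mRNA. In B clones the 76 members took 22.0%, 23.7%, 23.2%, 30.2% and 22.8% of UMIs in mice 27, 29, 31, 33 and 34, and in T clones 15.2% and 21.4% in mice 30 and 32. The clone of mouse 33 stood above the other B clones, which lay between 22.0% and 23.7%. The mean was 24.4% ± 3.33 (SD, n = 5) in B clones and 18.3% ± 4.37 (SD, n = 2) in T clones.

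Other BCR-called cells held 15.1%, 18.4%, 27.2% and 24.0% in mice 29, 31, 33 and 34, so the clone was higher in 3 of 4 mice and lower in mouse 34. The log2 ratio of clone to other cells averaged 0.26 ± 0.30 (SD, n = 4). It was 0.64 in mouse 29, where the reference was 23 cells, and 0.14 without that mouse, so the mean was within the spread between mice. Macrophage markers summed to 24.8, 29.7, 35.9 and 13.5 CPM in these other cells and to 6.71, 4.69, 14.3 and 7.62 CPM in the clones of mice 29, 31, 33 and 34. Proliferating cells made up 26.1%, 34.2%, 61.5% and 50% of the other cells and 49.8%, 87.6%, 81.4% and 86.7% of the clones. The part of both in the ratio was not tested. Other TCR-called cells held 17.9% and 22.4% in mice 30 and 32. Both T clones were lower than their own reference, with log2 ratios of -0.23 and -0.07. T cells without an assembled receptor held 12.9% and 18.3%, each below the clone of its mouse. Their median UMIs were 1399 and 2352. Under 2000 UMIs the clone and other TCR-called cells held 13.2% and 14.8% in mouse 30 and 19.4% and 17.4% in mouse 32. At 2000 to 5000 UMIs the clone was lower in both mice. The direction thus depended on the reference and, in mouse 32, on depth.

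T marker cells of the BCR nodules held 23.9%, 13.0%, 16.4%, 21.7% and 22.6% in mice 27, 29, 31, 33 and 34. The B clone was higher in 4 of 5 mice, by 10.7 percentage points (mouse 29), 8.56 (mouse 33), 6.77 (mouse 31) and 0.271 (mouse 34). In mouse 27 the difference was -1.92 points. The mean log2 ratio was 0.35 ± 0.40 (SD, n = 5), again within the spread between mice, and 0.22 without mouse 29. Clone and lineage cannot be told apart in this ratio.

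**Figure D1:**
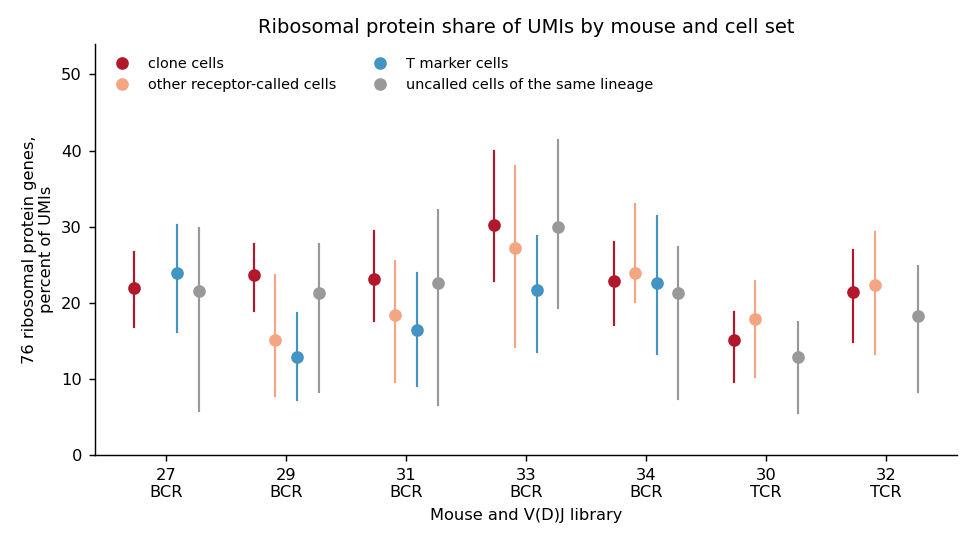
Percent of UMIs from the 76 ribosomal protein genes (y axis) in each mouse (x axis), by cell set. Points are the share of the summed UMIs of a set and lines run from the 10th to the 90th percentile of its cells; the 5 B clones lie between 22.0% and 30.2% and the 2 T clones at 15.2% and 21.4%.

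Depth moved with these sets, so cells of like depth were compared. Among cells with 5000 to 10000 UMIs, the members took 23.3% of UMIs in the clone and 14.3% in T marker cells of mouse 29, and 31.4% and 21.8% in mouse 33. In the same range the values were 21.9% and 25.0% in mouse 27 and 22.2% and 23.4% in mouse 34. In mouse 31, for which that range held too few T marker cells, the clone held 24.5% and T marker cells 17.7% among cells with 2000 to 5000 UMIs. Mouse 34 also had both sets at 10000 to 20000 UMIs, where the clone held 23.1% and 32 T marker cells 22.4%. The clone was thus higher at like depth in mice 29, 31 and 33 and lower in mouse 27, and in mouse 34 the direction changed with the range. Deeper cells had higher shares in some sets. T marker cells of mouse 31 held 13.8% under 2000 UMIs and 17.7% at 2000 to 5000 UMIs, and the T clone of mouse 30 held 13.2% under 2000 UMIs and 19.2% at 5000 to 10000 UMIs.

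The share was also compared between dividing and other cells of a clone. Cells with a UMI of 1 of 10 proliferation genes made up 49.8% to 93.4% of the B clones and 16.8% and 42.6% of the T clones. In mouse 27 the members took 22.0% of UMIs in these cells and 21.9% in the remaining clone cells, in mouse 29 23.8% and 23.4%, and in mouse 33 30.2% and 30.7%. In mouse 31 the values were 23.0% and 24.6% and in mouse 34 22.8% and 23.3%. Proliferating cells were thus higher in 2 B clones (mice 27 and 29) and lower in 3. In the T clone of mouse 30 they held 16.8% against 14.6%, and in that of mouse 32 21.7% against 21.0%. A single UMI set this split, and the proliferating cells were also the deeper ones in T and B clones. Their median UMIs were 2909 against 1933 in the T clone of mouse 30 and 4239 against 3323.5 in that of mouse 32. In B clones they were, for example, 9466 against 6209.5 in mouse 27, 12277 against 9259 in mouse 29 and 11308 against 7081 in mouse 31. The part of depth in these differences was not tested.

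B cells without an assembled receptor lay close to the clone of their nodule. They held 21.6%, 21.3%, 22.7%, 29.9% and 21.2% in mice 27, 29, 31, 33 and 34, so that the high level of mouse 33 was present in B cells whether or not a receptor was called. Cell classes outside the lymphocytes held less in most nodules. The members took 2.86% to 12.3% of UMIs in neutrophils of 6 mice, 6.99% to 18.6% in macrophages of 7 mice and 7.83% to 20.1% in endothelial cells of 7 mice. Erythroid cells were the exception in mouse 32, where they held 24.6%, above the 21.4% of its T clone, while they held 1.17% to 19.1% in the 4 other mice with at least 20 such cells.

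The second question was whether single ribosomal protein genes differed between clone and non-clonal cells of the same receptor type. Over the 6 mice with both sets, 0 of 76 members passed an adjusted p of 0.05 in edgeR's quasi-likelihood test with the mouse as a block, where 0.229% of 11798 genes did. None had an unadjusted p under 0.05, where 10.5% of all genes did, and DESeq2 called 0 members and 1.2% of all genes. The median log2 fold change of the members was 0.17 and that of all genes 0.18, so the members lay at the median of all genes on this scale. Among the larger differences were those of Rps6 (0.39 ± 0.22, SE) and Rps18 (0.36 ± 0.25), and the smallest those of Rps27 (-0.19 ± 0.16), Rps24 (-0.09 ± 0.19) and Rps21 (-0.07 ± 0.20).

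In the 4 B nodules 0 of 76 members were called by edgeR against 0.119% of all genes, with 36 members at an unadjusted p under 0.05 (14.9% of all genes) and 0 called by DESeq2 (2.04% of all genes). Log2 fold changes were positive in 74 members with a median of 0.36, where the median of all genes was 0.29. With DESeq2's size factors the median of all genes was 0.04, that of the members 0.11, and 60 members were positive, so only the part above the median of all genes is relative to other genes. Members of both subunits lay together, with medians of 0.37 for the large and 0.36 for the small subunit. The count of 36 at an unadjusted p under 0.05 depended on the scale and on single mice. It was 4 with DESeq2 (13.3% of all genes) and 3 on DESeq2's size factors in edgeR (1279 of 11798 genes). Without mouse 29 or 33 it was 4 and 3 (1138 of 12686 and 1155 of 11623 genes). Without mouse 31 or 34 it was 10 and 31 (1195 of 11460 and 1682 of 11568 genes). Among cells of 3000 to 12000 UMIs it was 48 (1229 of 10773 genes).

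Rps6, the small-subunit protein phosphorylated by S6 kinase, had the largest lean beside Rps18. It stood at 1811, 1618, 2719 and 1767 CPM in the B clones of mice 29, 31, 33 and 34 and at 887, 900, 1963 and 1633 CPM in the other BCR-called cells. The clone was higher within each of the 4 mice, though the sets overlapped between mice, and the log2 fold change was 0.70 ± 0.19 (SE, adjusted p = 0.186 in edgeR). Rps18, also of the small subunit, stood at 2251, 2691, 3679 and 2743 CPM in the clones and at 1191, 1294, 2664 and 2445 CPM in the other cells. Its log2 fold change was 0.74 ± 0.20 (SE, adjusted p = 0.187 in edgeR).

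Over the 4 B nodules, 20 of 76 members (26.3%) had a higher CPM in the clone in every mouse and 0 a lower one. Among all 11817 genes with at least 10 UMIs a library on average, 9.38% were higher and 14.6% lower in every mouse. These counts rest on references of 22 to 38 cells.

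In the 2 T nodules 0 of 76 members were called against 0.195% of all genes, with 1 member at an unadjusted p under 0.05 (5.16% of all genes) and 0 called by DESeq2 (0.678%). The log2 fold change was negative in 75 members with a median of -0.25, where the median of all genes was 0.04. By CPM, 48 of 76 members were lower in the clone in both mice and 4 were higher, against 19.9% and 35.6% of all 12543 genes.

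Rps24, a small-subunit protein, is an example of the lower members. It stood at 4051 and 6032 CPM in the T clones and at 5433 and 7212 CPM in the other TCR-called cells of mice 30 and 32, with a log2 fold change of -0.44 ± 0.25 (SE). Rps19, a small-subunit protein needed for maturation of the small subunit, stood at 1157 and 2654 CPM in the clones against 1671 and 2985 CPM. Neither passed the test.

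The difference between the T and the B clone effect was tested directly. None of the 76 members was called by edgeR or DESeq2, where edgeR called 0.0593% and DESeq2 0.331% of all genes. The difference was negative in all 76 members. An unadjusted p under 0.05 was reached by 33 members in edgeR (7.54% of all genes) and 17 in DESeq2 (6.87%), and the median was -0.63 against -0.25 over all genes. On DESeq2's size factors the difference was negative in 74 members, and 7 had an unadjusted p under 0.05 in edgeR (735 of 11798 genes). Without mouse 29 or 33 the count in edgeR was 11 and 5 (728 of 12686 and 635 of 11623 genes). Without mouse 31 or 34 it was 23 and 24 (782 of 11460 and 955 of 11568 genes). Among cells of 3000 to 12000 UMIs it was 42 (834 of 10773 genes). Without mouse 30 or 32, which leaves 1 T nodule, the median was -0.49 and -0.67. The 2 T and 4 B nodules also differed in depth and site, which cannot be told apart from the lineage.

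**Figure D2:**
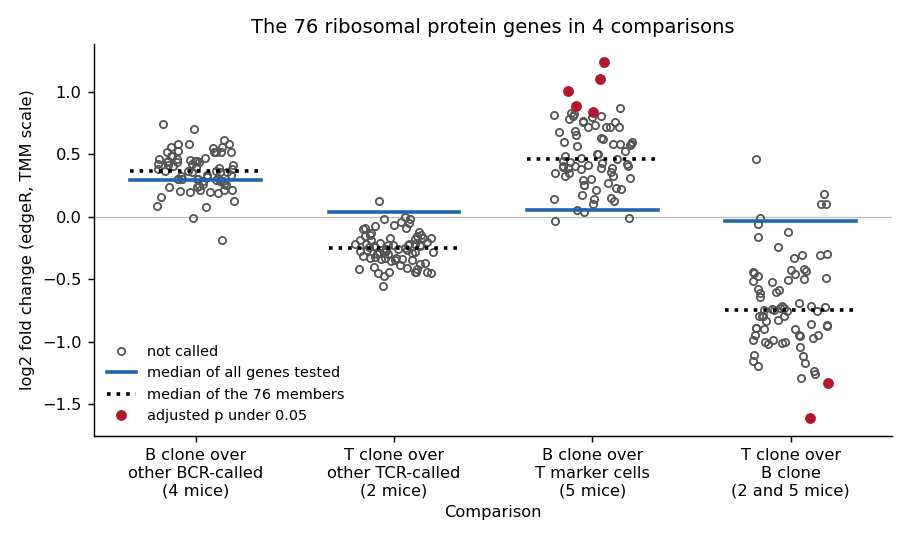
Log2 fold change (y axis, edgeR on the TMM scale) of each of the 76 members in 4 comparisons (x axis). Circles are genes, filled where the adjusted p was under 0.05, lines mark the median of the members (dotted) and of all genes tested (solid); 74 members were positive in B clones over other BCR-called cells, 1 in T clones over other TCR-called cells, and 5 passed the test in B clones over T marker cells.

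The third comparison set the B clones against the T marker cells of the same nodule, with more cells behind each value. Clone and lineage cannot be told apart in it. Of 76 members, 5 rose in the clone and 0 fell, against 28.1% of 13995 genes called in either direction and 13.1% called higher. Among them were Rpl28, Rps27a, Rps18 and Rps6, and 25 members had an unadjusted p under 0.05. The share of members called (5 of 76) was below the background of all genes, as was that at an unadjusted p under 0.05, which 42.1% of all genes reached. The median log2 fold change was 0.46 over the members and 0.06 over all genes, and 74 members were positive.

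Rpl28, a large-subunit protein, stood at 3883, 4417, 4511, 6042 and 4183 CPM in the B clones of mice 27, 29, 31, 33 and 34 and at 3095, 1087, 1835, 2554 and 2604 CPM in the T marker cells. The sets did not overlap. The log2 fold change was 1.24 ± 0.32 (SE, adjusted p = 0.026 in edgeR).

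Rps27a encodes a fusion of ubiquitin with a small-subunit protein. It stood at 6113, 6287, 4383, 5043 and 5817 CPM in the clones and at 3889, 1971, 2687, 3107 and 3616 CPM in the T marker cells, again without overlap. The log2 fold change was 1.00 ± 0.26 (SE, adjusted p = 0.026 in edgeR).

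Rps18, a small-subunit protein, was higher in the clone of every mouse, at 3192, 2251, 2691, 3679 and 2743 CPM against 2149, 981, 1257, 2513 and 2077 CPM. The ranges met between mice, since the clone of mouse 29 lay below the T marker cells of mouse 33. The log2 fold change was 0.89 ± 0.24 (SE, adjusted p = 0.030 in edgeR). Rps6 (0.84 ± 0.23, adjusted p = 0.034) was also higher in all 5 mice.

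The calls depended on single mice. Without mouse 31 no member was called, against 1039 of 13477 genes called higher. Without mouse 29 or mouse 34 1 was, against 1508 of 14664 and 947 of 13621 genes. Without mouse 33 2 were, against 1354 of 11511 genes. Without mouse 27, the transplanted nodule, 13 of 76 were, against 1071 of 13763 genes. There the share of members called was above that of all genes. DESeq2 called 21 members higher and 15% of all genes. Cells of 3000 to 12000 UMIs gave 2 calls in edgeR, against 1021 of 11279 genes called higher.

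The P-stalk proteins recruit translation factors to the large subunit. Rplp0 stood at 3403, 4072, 3477, 5707 and 5107 CPM in the clones and 4230, 1249, 2173, 3666 and 4253 CPM in T marker cells (0.72 ± 0.34, SE, adjusted p = 0.154 in edgeR). Rplp1 differed by 0.17 ± 0.27 and Rplp2 by 0.30 ± 0.26. Rpsa, the small-subunit protein also known as the laminin receptor, differed by 0.41 ± 0.24. None of the 4 passed the test.

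Rpl5 and Rpl11, which form the 5S ribosomal RNA complex that restrains the p53 inhibitor MDM2, differed by 0.63 ± 0.24 (SE) and 0.40 ± 0.29. Rpl22, a large-subunit protein with a role in lymphocyte development, differed by 0.56 ± 0.25, Rpl10 by 0.66 ± 0.24 and Rpl39 by 0.59 ± 0.26. Rps19 differed by 0.75 ± 0.26, Rps4x by 0.41 ± 0.26 and Rps14 by 0.23 ± 0.24. None of these passed an adjusted p of 0.05. Rpl13a (0.04 ± 0.29), Rpl38 (0.05 ± 0.22), Rps21 (-0.01 ± 0.28) and Rps27 (-0.03 ± 0.21) lay nearest to 0.

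T clones were last compared with B clones across mice. Of 76 members, 2 were lower in T clones and 0 higher, against 11.5% of 14693 genes called in either direction and 4.38% called lower. Rpl28 stood at 1546 and 2031 CPM in the T clones of mice 30 and 32, below all B clones, with a log2 fold change of -1.61 ± 0.37 (SE, adjusted p = 0.036 in edgeR). Rps27a stood at 2180 and 2912 CPM, also below all B clones (-1.33 ± 0.29, SE, adjusted p = 0.030 in edgeR). The median was -0.75 over the members and -0.04 over all genes, and 24 members had an unadjusted p under 0.05, as did 29.1% of all genes.

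These 2 genes were thus lower in T clones and lower in T marker cells than in B clones, in comparisons that share the B clones. Without mouse 27 or 34 no member was called, against 242 of 14375 and 295 of 14393 genes called lower. Without mouse 31 1 was, against 425 of 14352 genes, and DESeq2 called 17 lower, against 11.3% of all genes. Without mouse 30 or 32, which leaves 1 T nodule, the median of the members was -0.54 and -1.13. Rps27 had the highest value of the 76 in this comparison, with 3566 and 6723 CPM in the T clones against 2650 to 3802 CPM in the B clones (0.46 ± 0.35, SE). When libraries were scaled to the members it was called higher in T clones, by 1.05 on the log2 scale (adjusted p = 0.032 in edgeR).

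The members were then expressed as shares of their own summed UMIs, which removes the level of the family and leaves its composition. Across clones the log2 shares of the 76 genes correlated at 0.82 to 0.90 (Pearson, 10 pairs) between B clones, at 0.91 between the 2 T clones and at 0.71 to 0.86 (10 pairs) between B and T clones. These are correlations across genes that share a library, and they are given as a description.

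Against T marker cells, 14 members had a higher share in the B clone of all 5 mice and 14 a lower one. Among the higher were Rpl28, Rps27a, Rps18, Rps6, Rpl10a and Rpl4, with mean log2 ratios of 0.77 ± 0.26, 0.53 ± 0.30, 0.42 ± 0.24, 0.37 ± 0.17, 0.40 ± 0.21 and 0.35 ± 0.15 (SD, n = 5). Among the lower were Rps27, Rps21, Rpl13a, Rpl38, Rpl30, Rps24 and Rpl37a, with -0.51 ± 0.41, -0.49 ± 0.59, -0.44 ± 0.21, -0.42 ± 0.16, -0.37 ± 0.20, -0.35 ± 0.19 and -0.34 ± 0.11. Of these means, that of Rps21 was smaller than its SD, with -1.53 in mouse 31 and -0.10 to -0.33 in the other mice.

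Rps27 and Rps27a are different proteins of the small subunit and lay at opposite ends of the family. The log2 ratio of the Rps27 share was -0.21, -1.21, -0.31, -0.52 and -0.29 in mice 27, 29, 31, 33 and 34. That of Rps27a was 0.77, 0.81, 0.21, 0.22 and 0.67.

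Against other cells of the same receptor type the shares of Rps6 and Rps18 were higher in all 4 B clones, by 0.35 ± 0.14 and 0.39 ± 0.23 on the log2 scale (SD, n = 4), and that of Rps27 was lower in all 4, by a log2 ratio of -0.54 ± 0.48. In T clones the corresponding values of Rps6 were -0.01 and 0.08, those of Rps18 -0.22 and -0.06, and those of Rps27 0.12 and 0.00 in mice 30 and 32. In all, 13 members had a higher and 8 a lower share in every B clone, and 21 and 24 did in both T clones. Agreement of both T clones asks less than agreement of 4 B clones, so these counts cannot be compared between the lineages. The shares are of the members' own UMIs, so such counts have no background over all genes.

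**Figure D3:**
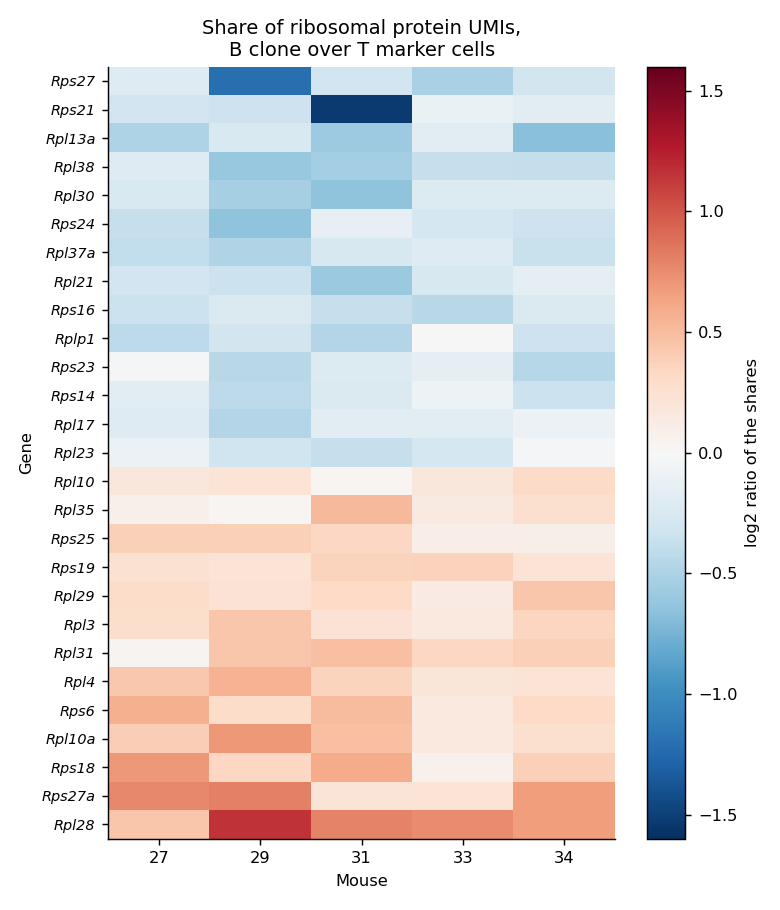
Log2 ratio of the share of ribosomal protein UMIs, B clone over T marker cells (color), in the 5 BCR mice (x axis) for 27 of the 28 members (y axis) that had the same direction in all 5, ordered by their mean. Rpl28 and Rps27a, with high ratios, lie in the bottom rows and Rps27 and Rps21, with low ones, in the top rows, where Rps21 is set by mouse 31.

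A pair of members stood out in a single clone. Rpl36a, a large-subunit protein, was singled out after its values were seen. It took 0.494%, 0.592%, 0.603% and 0.640% of ribosomal protein UMIs in the B clones of mice 27, 29, 31 and 34, 0.641% and 0.587% in the T clones of mice 30 and 32, and 1.30% (95% exact interval 1.29% to 1.31%) in the B clone of mouse 33. In that mouse it took 1.31% in B cells without an assembled receptor, 1.28% (1.19% to 1.37%) in the 26 other BCR-called cells, and 0.561% in T marker cells. The high share was present in all B cell sets of this nodule and not in its T marker cells. As CPM it was 3941 in the clone and 1218 in T marker cells, and the near-identical Rpl36a-ps1 was at 11.5 CPM in the clone.

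Rps21, a small-subunit protein, took 1.07%, 1.40%, 1.08% and 0.975% in the B clones of mice 27, 29, 33 and 34, 1.94% and 1.68% in the T clones of mice 30 and 32, and 0.504% (95% exact interval 0.499% to 0.509%) in the B clone of mouse 31. In mouse 31 it took 0.496% in B cells without an assembled receptor, 1.54% (1.39% to 1.70%) in the 38 other BCR-called cells and 1.46% in T marker cells. Here the clone and the uncalled B cells were low, and the BCR-called cells outside the clone were not. These intervals cover counting error only.

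**Figure D4:**
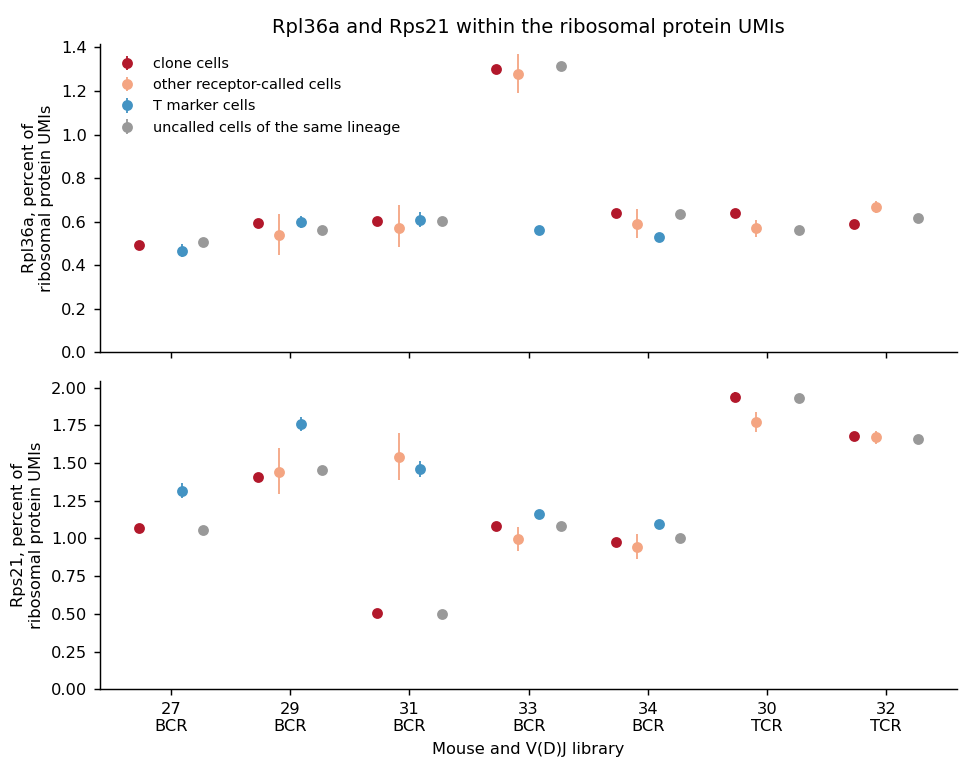
Share of ribosomal protein UMIs (y axis, percent) taken by Rpl36a (upper) and Rps21 (lower) in each mouse (x axis) and cell set, with 95% exact binomial intervals. Rpl36a reached 1.30% in the clone of mouse 33 and Rps21 was at 0.504% in the clone of mouse 31.

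Genes around the ribosome were read from lists grouped by function. In B clones against T marker cells, 21 of 24 ribosome biogenesis genes rose and 0 fell, where 13.1% of all genes rose. Their median log2 fold change was 1.21, against 0.46 for the 76 ribosomal proteins and 0.06 for all genes. The same 13.1% and 0.06 are the background of the other lists in this comparison. It sets clonal B cells against non-clonal T cells, so clone and lineage cannot be told apart in it. Proliferating cells made up 49.8% to 93.4% of the B clones and 11.1% to 42.5% of the T marker cells. The part of proliferation in these values was not tested. Npm1, a nucleolar chaperone, stood at 2340, 5180, 1316, 1627 and 1874 CPM in the clones of mice 27, 29, 31, 33 and 34 and at 1262, 774, 614, 1176 and 988 CPM in T marker cells (1.32 ± 0.37, SE, adjusted p = 0.033 in edgeR). Its sets did not overlap. Fbl, the nucleolar RNA methyltransferase fibrillarin, rose by 1.27 ± 0.30 and Dkc1, the pseudouridine synthase dyskerin, by 1.69 ± 0.36. Nop56, Nop14 and Rrn3 did not pass the test.

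Mitochondrial ribosomal proteins, encoded by 78 tested genes, rose in 28 and fell in 1, with a median of 0.73. Mrps7 rose most among those called (1.44 ± 0.21, SE), and Mrps6 was the gene that fell (-1.73 ± 0.34). Of 8 elongation factor and other TOP mRNA genes, Eef1g (1.00 ± 0.24), Rack1 (0.81 ± 0.22) and Eef1b2 (0.80 ± 0.24) rose, and 5 were not called. Tpt1 had a value of -0.08 ± 0.26 and Eef1a1 one of 0.33 ± 0.27.

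Among 5 regulators, Myc, Eif4ebp1 and Rps6kb1 rose and Mtor and Larp1 were not called. Myc stood at 162, 489, 185, 148 and 82.0 CPM in the clones and at 45.2, 52.9, 44.6, 68.8 and 58.5 CPM in T marker cells, so that the clone was higher in every mouse and least so in mouse 34 (1.85 ± 0.41, SE, adjusted p = 0.015 in edgeR).

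Of 10 proliferation genes 5 rose, among them Mki67 (1.66 ± 0.41, SE). Of 6 tested paralogs of ribosomal protein genes, Rpl7l1 (0.81 ± 0.17) and Rpl3l rose. Rpl3l was at 0.420 to 14.4 CPM in the clones and at 0 to 0.782 CPM in T marker cells. Rps3a1 and Fau differed by 0.71 ± 0.27 and 0.05 ± 0.26 and neither passed the test.

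**Figure D5:**
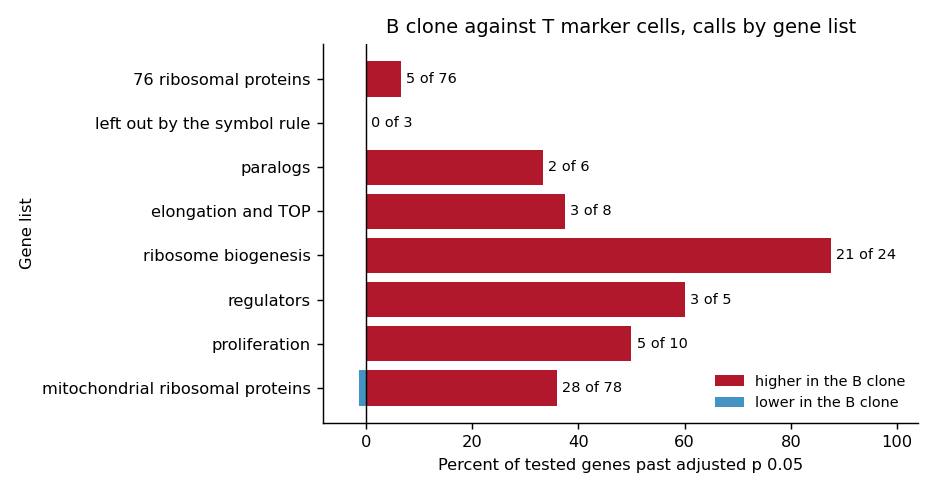
Percent of the tested genes of each list (x axis) that passed an adjusted p of 0.05 in B clones against T marker cells, higher to the right and lower to the left, with counts beside the bars. 21 of 24 ribosome biogenesis genes rose, against 5 of 76 ribosomal protein genes and 13.1% of all genes.

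In T clones against B clones, 10 of 24 ribosome biogenesis genes and 18 of 78 mitochondrial ribosomal protein genes were lower and none higher. Of all genes 4.38% were lower. The medians of these lists were -1.36 and -1.06, against -0.04 over all genes. Nhp2, a subunit of the pseudouridylation complex, had the lowest value among the called biogenesis genes (-2.54 ± 0.29, SE). Of the remaining lists, Eef1g, Rps6kb1 and 4 of 10 proliferation genes were lower. Against other cells of the same receptor type, edgeR called 0 of the 132 tested genes of these lists in the B nodules, in the T nodules or over both together. At an unadjusted p under 0.05 there were 45, 0 and 19, where 14.9%, 5.16% and 10.5% of all genes were. DESeq2 called 5 (Ccna2, Mki67, Top2a, Rrm2 and Dkc1) in the B nodules, against 2.04% of all genes, and none elsewhere. There the median of the biogenesis genes was 0.81 in B and -0.16 in T clones, and that of the proliferation genes 1.71 and -0.00. The median of all genes was 0.29 in B and 0.04 in T clones.

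Near-identical copies could take part of the reads of some members. Rpl9-ps6 ranged from 164 to 461 CPM and Rpl10-ps3 from 188 to 413 CPM over the B clones, against 2467 to 4022 CPM for Rpl9 and 2233 to 3732 CPM for Rpl10. Among the 7 clones the proportion was largest in the T clone of mouse 30, where Rpl9-ps6 stood at 25.1% of Rpl9 and Rpl10-ps3 at 28.6% of Rpl10. Values of Rpl9, Rpl10, Rpl36a and Rps27 are uncertain to that extent.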

How the data were processed

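The authors deposited raw UMI counts per gene and cell (builds GRCm38 and mm10 per the labels) and receptor contigs with clonotypes; the aligner is not given in the sources used here. The study's methods name a 3′ kit for RNA and a 5′ kit for receptor libraries, while receptor calls and RNA matrices share barcodes (1782 of 1783 in mouse 27), so the transcript end counted was not settled. Cells with at least 201 UMIs, 101 genes and at most 10% mitochondrial UMIs were kept. Classes were set by at least 2 UMIs of markers of 1 of 8 classes, so no member took part. Mixed cells (2304 of 15554 clone family cells, 14.8%) were left out in place of a doublet caller.

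Counts were summed per mouse and set, with at least 10 cells, and tested with edgeR 4.0.16 (quasi-likelihood, TMM, mouse as block, Benjamini-Hochberg over all genes) in R 4.3.3, and with DESeq2 1.42.0 as an alternative. Sets come from the same animal, and own-mouse correlations of their deviations were 0.290 to 0.687 and the best in 6 of 6 mice. On simulated data with 200 changed genes, B clones against T marker cells recovered 63% of 2-fold and 99% of 4-fold changes. B clones against other BCR-called cells recovered 20.4% and 71.1%. The simulation gave every gene the same dispersion and put no differences between mice, so these rates hold for that setting only. The 22 named members were 16 fixed by role, the 3 largest and 3 smallest of the clone comparison over all mice and up to 3 called in each direction elsewhere; Rpl10a, Rpl4, Rpl30, Rpl37a, Rpl36a and those listed for all 5 mice were chosen after their values were seen. Members and lists were chosen with earlier results of these data known. Some genes stayed in the counts and fits and are not reported here. Promoters are from RefSeq, with the first entry per gene. These cell limits follow the study's methods.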

Additional observations from a re-analysis of the deposited data

Results flagged for a closer look

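Dixon's test was applied to 50 sets of 4 or 5 BCR mice, for the named members, Rpl36a and the summed members. Of these, 9 held a sample beyond its critical value. Chance gives about 1 in 20 for independent sets, but these share mice and totals, so that rate cannot be set against the count. Rpl36a had been picked for its value in mouse 33, and without its 2 sets 7 of 48 held such a sample. Some other named members, Rps21 among them, were also picked by their values. The B clone of mouse 33 stood apart in the summed members (30.2% of UMIs) and in Rpl36a, as a share of ribosomal protein UMIs (1.30%) and as a log2 ratio to T marker cells (1.21). The same mouse had the lowest ratio of Rpl22 (-0.14). In mouse 31 Rps21 had a log2 ratio of -1.53, Rpl5 one of -0.046, and Rplp2 a share of 2.92% in the clone. In mouse 29 Rpl10 had a share of 0.944% in the clone, and Rpl11 a log2 ratio of 0.27 to T marker cells. The causes were not tested.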

How the results depend on the processing

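Of 220 recomputed counts and means, 198 stayed within 1.5 times the reported count or 1 SD of the reported mean. In B clones against T marker cells, 5 members were higher, and the count was 21 with DESeq2, 3 when scaled to the members, 2 among cells with 3000 to 12000 UMIs, 8 without proliferating cells, 2 with no replicate block, and 0 to 13 when 1 mouse was left out. In T clones against B clones, 2 members were lower, and the count was 17 with DESeq2, 1 when scaled to the members (where 1 was also higher), 0 without a filter on low counts, 1 among cells with 3000 to 12000 UMIs, 1 with cells of any class, and 0 to 2 when 1 mouse was left out. With uncalled cells as the reference, the mean log2 ratio of the summed members in T clones was 0.34 in place of -0.15. The uncalled cells hold every cell class, and the uncalled T cells alone also lay below the T clone of their nodule. The causes of the other changes were not tested. No member was called in the comparisons with other receptor-called cells, or in the difference between T and B clone effects, under any alternative. With DESeq2 the counts of all genes called went to 142 from 27 over all clones, 241 from 14 in B clones, 80 from 23 in T clones, 39 from 7 in their difference, 3246 from 1683 in T against B clones and 5055 from 3935 in B clones against T marker cells. Other edgeR settings gave 0 to 1169, 0 to 447, 0 to 254, 0 to 177 and 873 to 2001, and 2363 to 4076 in place of 3935 in B clones against T marker cells. Of 2112 recomputed values of named members, 38 lost and 9 gained a call and 0 called values changed sign; 172 uncalled ones did. The block moved no other member call.

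References of 22 to 38 cells limit the B clone comparison, and 2 T nodules limit both comparisons of T clones. Leaving out mouse 30 or 32 leaves 1 T nodule, whose spread is then taken from the other mice. Depth differs between the sets, and free RNA was not modelled.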
